A study of Homo sapiens with 6 samples.

Results

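Accessible sites of peak-rich megabases are stretches of open chromatin that lie in the parts of the U2OS genome where such sites crowd together. They were chosen as follows. Chromosomes 1 to 22 were divided into 1-Mb bins. A bin was kept when at least 146 peak summits of WT replicate 1 fell in it, and the segments at 0 to 15 Mb of chromosome 11, 75 Mb to near the end of chromosome 13 and 20 to 75 Mb of chromosome 18 were left out. Peaks of all 6 libraries that overlapped by 1 bp or more were merged into regions, and the members are the regions whose midpoint lies in a kept bin. There were 282 kept bins on 21 chromosomes, 10.3% of the autosomal bins with a WT replicate 1 summit, and they held 60214 of 243541 autosomal regions (24.7%). The other autosomal sites outside the left-out segments numbered 176282.

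ATAC-seq uses a transposase that cuts accessible DNA and leaves adapters at the cuts, so that a pile of fragments marks an open site. The cells were U2OS, an established human osteosarcoma line, either with a CRAMP1 knockout (CRAMP1-KO, 3 libraries) or wild type (WT, 3 libraries). No drug or time course was part of the design. Whether the replicates were separate cultures, and whether the knockout is 1 clone or a pool, is not given in the sources used here, and all p-values refer to the spread among these libraries alone, part or all of which may be technical. Because WT replicate 1 chose the bins, WT replicates 2 and 3 were compared with the 3 CRAMP1-KO replicates.

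CRAMP1 is a chromatin protein known for its part in the expression of linker histone H1 genes. Linker histones bind the nucleosome where DNA enters and leaves it and help to pack chromatin. Megabases rich in accessible sites are, as a rule, rich in genes, in G and C bases and in CpG island promoters, and replicate early in S phase, while site-poor megabases hold more compact chromatin. The comparison asks how accessible sites of neighbourhoods rich in such sites stand in cells without CRAMP1, beside the sites of the rest of the genome.

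Gene starts were placed on hg19 by a list of 49 genes in 8 functional groups, of which 33 lay in kept bins. The promoters of 5 of them are shown because they set a start called lower in CRAMP1-KO (COL18A1) beside starts that were not called, among them DNMT1 with an estimate near 0. Each run is the 250 bases upstream of the start in RefSeq on GRCh38.p14, 5′ to 3′ on the gene's strand, at chr21:45404915-45405164 (plus), chr21:46097862-46098111 (plus), chr19:1205528-1205777 (plus), chr19:18281623-18281872 (minus) and chr19:10194954-10195203 (minus), in the order of the lines. Capitals mark GC boxes, the letters GGGCGG or CCGCCC, to which factors of the Sp1 family can bind.
COL18A1: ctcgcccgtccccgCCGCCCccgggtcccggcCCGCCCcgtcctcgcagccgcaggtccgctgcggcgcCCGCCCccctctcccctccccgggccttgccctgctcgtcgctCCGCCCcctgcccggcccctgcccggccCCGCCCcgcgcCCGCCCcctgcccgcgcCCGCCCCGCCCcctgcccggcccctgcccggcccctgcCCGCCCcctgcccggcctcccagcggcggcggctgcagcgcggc
COL6A2: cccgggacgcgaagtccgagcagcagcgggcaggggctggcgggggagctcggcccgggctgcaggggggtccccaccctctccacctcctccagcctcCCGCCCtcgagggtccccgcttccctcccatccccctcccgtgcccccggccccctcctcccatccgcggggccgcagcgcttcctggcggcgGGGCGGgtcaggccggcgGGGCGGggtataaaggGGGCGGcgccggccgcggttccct
STK11: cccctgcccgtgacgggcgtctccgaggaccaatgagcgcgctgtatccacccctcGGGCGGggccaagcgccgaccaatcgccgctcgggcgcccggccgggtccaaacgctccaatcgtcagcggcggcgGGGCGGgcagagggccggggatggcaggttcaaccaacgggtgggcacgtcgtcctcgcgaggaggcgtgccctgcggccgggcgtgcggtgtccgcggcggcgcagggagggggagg
JUND: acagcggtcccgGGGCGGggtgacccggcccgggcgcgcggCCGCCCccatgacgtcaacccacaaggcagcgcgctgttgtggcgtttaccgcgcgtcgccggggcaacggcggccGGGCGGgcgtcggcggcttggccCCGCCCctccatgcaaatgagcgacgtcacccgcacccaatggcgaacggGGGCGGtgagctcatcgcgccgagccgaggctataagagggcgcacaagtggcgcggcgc
DNMT1: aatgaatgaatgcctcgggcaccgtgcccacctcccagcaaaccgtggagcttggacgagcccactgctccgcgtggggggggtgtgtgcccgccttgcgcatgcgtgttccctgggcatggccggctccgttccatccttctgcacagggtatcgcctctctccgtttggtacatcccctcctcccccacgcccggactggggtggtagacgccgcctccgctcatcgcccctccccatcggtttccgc

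The first run holds 9 GC boxes, overlapping matches included, and 37 CpG dinucleotides, and the run of COL6A2 holds 4 GC boxes and 28 CpG. STK11 has 2 GC boxes, JUND has 5 and DNMT1 has none of these letters in its window. The promoters of POLR2A, SREBF1, EEF2 and GADD45B were also available and are not printed. They hold 2, 3, 3 and 0 GC boxes, and none of these starts was called. Whether GC boxes go with the change at a start was not tested. Of the 33 listed genes in kept bins, 22 had a promoter in the table, and 20 of these 22 hold a GC box in the 250 bases, against 42.3% of all 27305 promoters. CCAAT or its complement ATTGG stood in 8 of the 22 and in 33.0% of all promoters, TATAAA or TTTATA in 5 and in 11.1%, and TGANTCA, the letters of an AP-1 site, in 0 and in 6.60%. The median promoter of the 22 had 27.5 CpG and 71.2% G and C, against 11 CpG and 58% over all promoters. The listed genes were picked by hand as well-known genes, so these shares describe the list and not the kept bins as a whole.

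The libraries differed in depth. The CRAMP1-KO lists held 133783, 139271 and 158025 peaks and the WT lists 198912, 151673 and 132710. A relative depth index was taken as the lowest local background of each list over its lowest peak width, relative to the mean of the 6 libraries. It was 0.827, 0.808 and 1.03 in CRAMP1-KO and 1.60, 1.002 and 0.733 in WT. CRAMP1-KO replicate 3 and WT replicate 2 were thus close in this index. Log2 pileups of libraries of the same genotype correlated at 0.974 to 0.981 across shared regions, and those of different genotypes at 0.944 to 0.954, and no 2 lists were identical. RUNX2, COL1A1, COL1A2 and SPARC, the bone lineage markers, had a peak within 1 kb of their starts, while ALB (liver) and PTPRC (blood) had none. The start used for CRAMP1 had no member within 1 kb, so peaks do not check the knockout.

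The kept bins were spread unevenly over the chromosomes. Chromosome 17 had 32 of them, chromosome 1 had 25, chromosome 12 had 20, and chromosomes 19 and 22 had 19 each, while chromosome 13 had none. Members made up 63.2% of the regions of chromosome 22, 56.3% of those of chromosome 17 and 50.8% of those of chromosome 19, against 6.48% on chromosome 6. The gap between neighbouring members had a median of 2850 bp, against 5567 bp between other sites, which follows from the rule. Members were also wider, with a median of 452 bp against 391 bp. A peak in all 6 libraries was present at 36.8% of members and at 37.3% of other sites, and a peak in WT replicate 1 alone at 14.2% and 15.2%. Dense neighbourhoods thus held wider sites that recurred across the libraries about as often as sites elsewhere.

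A smaller part of each CRAMP1-KO peak list lay in the peak-rich megabases. The kept bins held 24.99, 24.3 and 25.1% of the peaks of CRAMP1-KO replicates 1 to 3, against 26.9% in each of WT replicates 2 and 3. The mean was 24.8% ± 0.451 in CRAMP1-KO (SD, n = 3) and 26.9% ± 0.0084 in WT (SD, n = 2). The difference was −2.08 percentage points, and the ranges did not overlap. The two-sided exact permutation test gave p = 0.2, the smallest that 2 libraries against 3 allow. At a like depth index, CRAMP1-KO replicate 3 had 25.1% and WT replicate 2 had 26.9%. With every list shortened to the 132710 peaks of the shortest, the difference was −2.17 points, and with peaks of −log10 q of at least 10 alone it was −1.77 points. In the shortened lists WT replicates 2 and 3 had 25.8 and 26.9%, and CRAMP1-KO replicates 1 to 3 had 24.95, 24.0 and 23.5%. The small SD of WT thus did not hold at equal list length.

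WT replicate 1, the deepest library, had 25.7% of its peaks in the kept bins, above every CRAMP1-KO library and below the other WT libraries. Its own summits chose the bins, so its share is a description. When 282 bins were chosen from CRAMP1-KO replicate 1 instead, 241 of them were the same bins. CRAMP1-KO replicates 2 and 3 then had 24.5 and 25.4%, and WT replicates 1 to 3 had 25.3, 26.9 and 27.1%, a difference of −1.49 points with overlapping groups (exact p = 0.4).

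The difference followed the density of the bins in WT replicate 1 from one end of the scale to the other. Bins with 0 to 49 WT replicate 1 summits held 18.04% ± 0.242 of CRAMP1-KO peaks and 14.9% ± 0.122 of WT peaks, a difference of +3.13 points. Bins with 50 to 99 summits held 29.9% ± 0.340 and 29.3% ± 0.124, a difference of +0.60. In bins with 100 to 145 summits the shares were 27.3% ± 0.118 in CRAMP1-KO and 28.9% ± 0.0098 in WT, a difference of −1.66, and the kept bins, at −2.08, lay lower still. In each of the 4 classes all 3 CRAMP1-KO libraries lay on the same side of both WT libraries (SD, n = 3 and 2). The shares of a library add up to the whole, so that a lower share in one class requires a higher one elsewhere. The classes were cut on a WT library, and none were cut on a CRAMP1-KO library. Bins that are sparser in WT than in CRAMP1-KO fall into the lower classes, so the choice itself can add to this order.

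**Figure D1:**
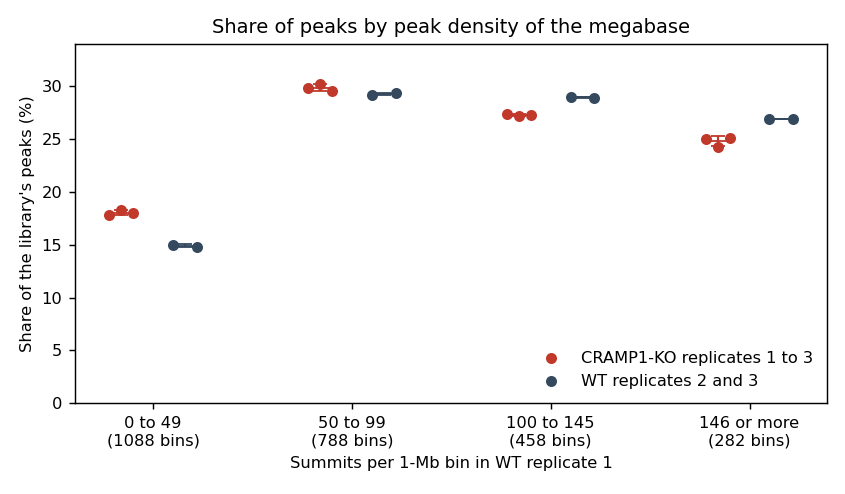
Share of each library's autosomal peaks (%) in 1-Mb bins grouped by the number of WT replicate 1 summits, with points for libraries, horizontal marks for means and bars for SD. CRAMP1-KO lies above WT in the sparsest bins (18.04 against 14.9%) and below it in the 282 kept bins (24.8 against 26.9%).

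Peaks per bin, as a share of the library's peaks, were tested with limma over 2688 bins with a mean of at least 5 peaks. Of the 282 kept bins 17 were called lower in CRAMP1-KO (6.03%) and 0 higher at an adjusted p of 0.05. Over all bins tested 3.27% were called lower and 20.6% higher. At an unadjusted p under 0.05, 68 kept bins were lower (24.1%) and 0 higher, against 8.82% lower and 30.7% higher over all bins. The estimate was below 0 in 259 of the 282, with a median log2 change of −0.11, against 0.06 over all tested bins and 0.09 over those not kept. Every CRAMP1-KO library lay below both WT libraries in 163 kept bins (57.8%) and above both in 2, while over all bins 20.6% lay below and 36.5% above. At the limit itself, the 42 bins with 146 to 150 summits and the 41 bins with 141 to 145 had the same median change, −0.11, with no step at the limit. The 17 called bins lay on 12 chromosomes. Leaving out CRAMP1-KO replicate 1, 2 or 3 gave 5, 5 and 12 bins called lower, leaving out WT replicate 2 or 3 gave 4 and 2, and with the bins chosen from CRAMP1-KO replicate 1 there were 0 (18 lower and 0 higher at an unadjusted p under 0.05).

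Among the 17 called bins, the one with the largest change was at 30 to 31 Mb of chromosome 1. It held 85, 90 and 106 peaks in CRAMP1-KO replicates 1 to 3 and 141 and 113 peaks in WT replicates 2 and 3, a log2 change in share of −0.45 (SE 0.073, limma adjusted p = 0.006). Every CRAMP1-KO library was below both WT libraries in number, although CRAMP1-KO replicate 3 has more peaks in all than either. The bin at 45 to 46 Mb of chromosome 21 had 118, 131 and 153 peaks in CRAMP1-KO and 181 and 158 in WT (−0.35, SE 0.072, adjusted p = 0.0129). The other 3 of the 5 largest called changes were in the bins at 228 Mb of chromosome 1 (−0.35), at 71 Mb of chromosome 2 (−0.34) and at 126 Mb of chromosome 3 (−0.33). The adjusted p-values of these 3 ran from 0.0155 to 0.0241. The bin at 44 Mb of chromosome 11 had an estimate of −0.37 and was not called (adjusted p = 0.0548).

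The densest bins were not those that moved most, although most of them fell by more than the median kept bin. The bins with the most WT replicate 1 summits were at 144 and 142 Mb of chromosome 8 (262 and 254 summits), at 1 Mb of chromosome 7 (253), at 61 Mb of chromosome 20 (248) and at 72 Mb of chromosome 17 (245). Their log2 changes in share were −0.20, −0.19, −0.04, −0.16 and −0.20, and none was called. Over the kept bins the median was −0.11 and the lower quartile −0.17.

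Sites in the kept bins were also lower in height. The rule counted peaks of WT replicate 1 and did not use their height. A peak must be high enough to be called, however, so the choice of bins can add to the difference. Summit pileup, the number of fragments stacked at the summit, was solved from the authors' fold enrichment and p-value and centred on each library's median. It was tested at 90373 regions with a peak in all 6 libraries, of which 22151 were members, 36.8% of the 60214. Of these 22151, 2154 (9.72%) were called lower in CRAMP1-KO and 459 (2.07%) higher. Over all tested regions 7.28% were called lower and 5.59% higher. The median log2 change was −0.14 at members, with quartiles of −0.32 and 0.05, against −0.08 over all tested regions and −0.05 over those that were not members. Members called lower stood in 276 of the 282 bins and members called higher in 199. Each bin holds many tested members, so a single call in a bin is common. These counts of bins therefore do not measure how widely the falls were spread. Leaving out CRAMP1-KO replicate 1, 2 or 3 gave 1366, 1236 and 906 members called lower, and leaving out WT replicate 2 or 3 gave 578 and 389, while scaling by the depth index gave 767 lower and 215 higher.

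Within each library, members stood less far above the other sites in CRAMP1-KO than in WT. The median log2 pileup of members minus that of other sites was 0.39, 0.38 and 0.37 in CRAMP1-KO replicates 1 to 3 and 0.49 and 0.49 in WT replicates 2 and 3, a difference of −0.11. The groups were farther apart than any libraries within them. This measure compares sites inside a library, so that a factor common to all sites of a library cancels, and WT replicate 1, at 0.45, also lay above the CRAMP1-KO libraries. The exact permutation p was 0.2, the smallest possible.

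Local background, the fragment density that the peak caller expects around a site, was lower as well. Members exceeded other sites in background by a median log2 difference of 0.90, 0.91 and 0.89 in CRAMP1-KO and by 1.01 and 1.04 in WT, a difference of −0.12 (exact p = 0.2). WT replicate 1, at 0.93, lay between. Per region, 3952 members (17.8%) were called lower and 964 (4.35%) higher for background, against 11.4% and 9.72% over all tested regions. The median change was −0.07 at members and 0.01 over all. The value over all, 0.0114, was also the median in the lowest quintile of sites by mean background, at members and at other sites. Many sites there share the lowest background of their library, so the sign of this value carries little. Scaled by the depth index instead, 411 were called lower and 235 higher, and without WT replicate 2 or 3 there were 2067 and 1806 called lower. Of the 2154 members lower in pileup, 1485 (68.9%) were also lower in background, which is 37.6% of the members lower in background.

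Fold enrichment, the deposited ratio of summit to background, moved less. It was called lower at 310 members (1.40%) and higher at 0.519% of members, against 1.23% and 2.07% over all tested regions, and its median log2 change was −0.07 at members and −0.06 over all. Leaving out CRAMP1-KO replicate 1, 2 or 3 gave 265, 198 and 84 called lower, and leaving out WT replicate 2 or 3 gave 102 and 53. The log2 fold enrichment of members minus other sites was −0.41, −0.39 and −0.43 in CRAMP1-KO and −0.37 and −0.34 in WT, a difference of −0.06 (exact p = 0.2). Only 293 of the 2154 members lower in pileup (13.6%) were also lower in fold enrichment, but these are 94.5% of the members lower in fold enrichment. At most members with a lower summit, then, the background solved for the same summit was called lower too. Both values are solved from the same peak and are not independent measurements. In bulk cells, fewer copies of a stretch of DNA and fewer cuts per copy cannot be told apart.

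Covered width, the bases of a region under peaks, gave no call at members in either direction (0% and 0% over all tested regions, limma), with 1309 members narrower (5.91%, against 4.26% of all tested regions) and 893 wider (4.03%, against 5.97%) at an unadjusted p under 0.05. With WT replicate 1 added 5 were called narrower and 13 wider, and with the replicate numbers as a block, which the libraries do not follow, 280 and 187. Members minus other sites came to 0.22, 0.23 and 0.25 in CRAMP1-KO and 0.31 and 0.29 in WT on the log2 scale, a difference of −0.07 (exact p = 0.2).

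**Figure D2:**
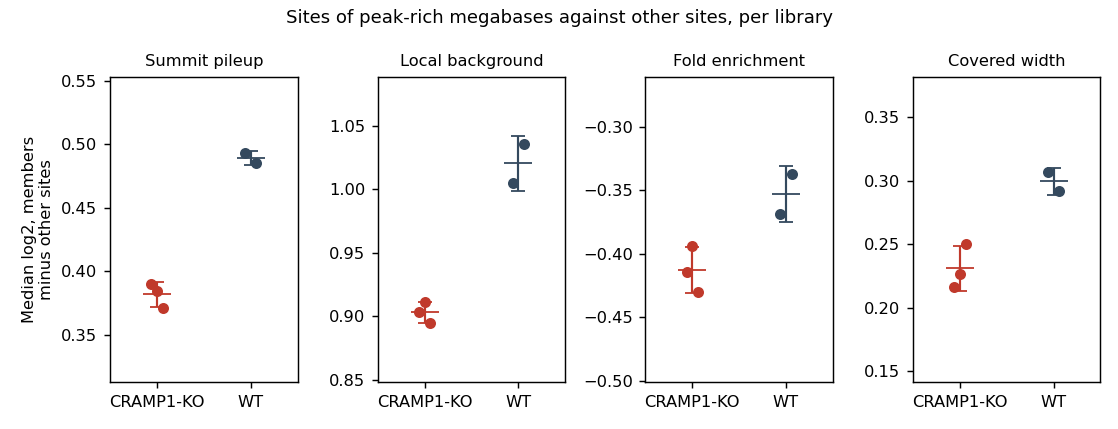
Median log2 value of members minus that of other sites in each library, for summit pileup, local background, fold enrichment and covered width, with points for libraries, horizontal marks for means and bars for SD. In all 4 panels the 3 CRAMP1-KO libraries lie below WT replicates 2 and 3, by 0.06 (fold enrichment) to 0.12 (background).

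The presence of peaks differed in the same direction. A peak was found at 51.2, 51.4 and 61.0% of members in CRAMP1-KO replicates 1 to 3 and at 62.2 and 53.3% in WT replicates 2 and 3. At other sites it was found in 53.3, 55.7 and 62.8% in CRAMP1-KO and in 58.5 and 50.5% in WT. The share at members was below that at other sites in each CRAMP1-KO library and above it in each of these WT libraries, while WT replicate 1, which chose the bins, had a peak at 77.4% of members and 77.5% of other sites. A peak in all 3 CRAMP1-KO libraries and in neither WT library was found at 498 members (0.827%), and a peak in both WT libraries and in no CRAMP1-KO library at 1159 (1.92%). At other sites 3674 (2.08%) were in CRAMP1-KO only and 2458 (1.39%) in WT only. That order at other sites did not hold with WT replicate 1 added (1541 in CRAMP1-KO only and 1836 in WT only), without WT replicate 3 (5083 and 12277) or without CRAMP1-KO replicate 3 (4669 and 4690), whereas at members WT only was the larger in these settings too. These counts follow the number of libraries asked for and their depth, and carry no test.

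The sites were ranked by mean background and by mean pileup to see where the members differed from sites of like height. In the lowest quintile by background the median log2 pileup change was −0.08 at members and 0.10 at other sites. In the second it was −0.08 against 0.04, in the third −0.11 against −0.05, in the fourth −0.12 against −0.13 and in the highest −0.18 against −0.20. Members and other sites thus lay apart among sites of low background and together among sites of high background. Of the members 36.1% were in the highest quintile, against 14.6% of other sites. Only 4.16% of members were in the lowest, against 25.3% of other sites, so the widest separation covers few members. Ranked by pileup, the median changes from the lowest quintile to the highest were −0.14, −0.10, −0.08, −0.10 and −0.20 at members and 0.00, 0.07, 0.02, −0.08 and −0.20 at other sites. The means used for ranking hold the compared values themselves, and so these lines carry no test.

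**Figure D3:**
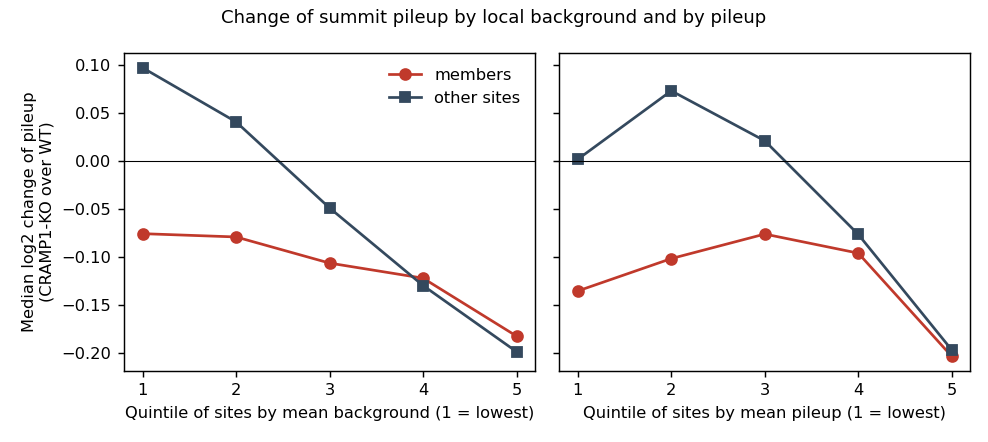
Median log2 change of summit pileup (CRAMP1-KO over WT) in quintiles of the tested sites ranked by mean local background (left) or mean pileup (right), for members and for other sites. The lines are apart in the lowest quintiles (−0.08 against 0.10 by background) and meet in the highest (−0.18 against −0.20). The lowest quintile by background holds 4.16% of members and the highest 36.1%.

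Members lay below the other sites of their own chromosome in most cases. The median pileup change of members was below 0 on 21 of 21 chromosomes, as it was at other sites on 19 of them, and below that of the other sites of the same chromosome on 17, the exceptions being 17, 18, 19 and 22. The median background change was below 0 on 20 chromosomes at members and on 4 at other sites. At other sites it was 0.0114 on chromosomes 1, 2, 3 and 20, among others. That value recurs because many sites share the lowest background of their library, so its sign is not a measured rise. The mean share of a chromosome's peaks that lay in its kept bins was lower in CRAMP1-KO on 20 of 21 chromosomes. On chromosome 18 the groups overlapped, with 48.12, 46.80 and 48.25% in CRAMP1-KO replicates 1 to 3 and 48.17 and 48.09% in WT replicates 2 and 3. Chromosome 19 had +0.15 points. Chromosome 21 was at the other end, with 34.5, 34.4 and 35.7% in CRAMP1-KO replicates 1 to 3 and 41.5 and 40.7% in WT replicates 2 and 3, −6.28 points. Member medians of pileup were lowest on chromosomes 11 (−0.36, with background at −0.29) and 21 (−0.32, with background at −0.25), and nearest 0 on chromosome 5 (−0.02). On both chromosomes 11 and 21 the other sites were far nearer 0, at −0.10 and −0.01. On chromosomes 17, 19 and 22, where members make up the majority of regions, members and other sites differed by 0.01, 0.05 and 0.04, with members the higher.

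**Figure D4:**
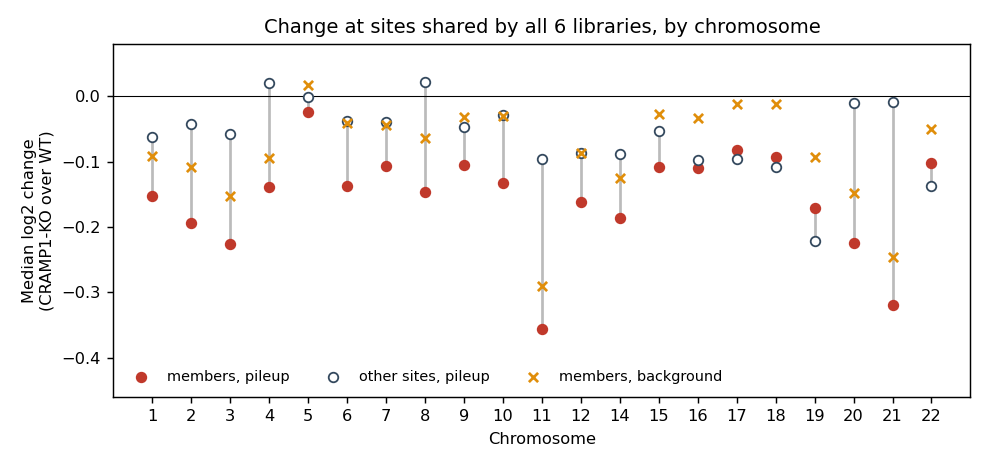
Median log2 change (CRAMP1-KO over WT) of summit pileup at members (filled) and other sites (open), and of local background at members (crosses), for the 21 chromosomes with kept bins. Pileup at members lies below that of other sites on 17 chromosomes and is lowest on chromosomes 11 (−0.36) and 21 (−0.32), where background is low as well, while other sites also lie below 0 on 19.

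The members called lower were concentrated in part. The 10 bins with the most of them held 327, or 15.2% of the 2154, while 130 bins had 5 or fewer. First came the neighbouring bins at 65 and 64 Mb of chromosome 11, with 66 of 120 and 55 of 96 tested members called lower. Their median changes were −0.53 and −0.48 for pileup and −0.47 for background in both. The bin at 85 Mb of chromosome 2 followed with 37 of 82 (pileup −0.47, background −0.43). In all 10 bins the median background change lay below −0.2. None of these 3 bins was among the 17 called for peak number, with log2 changes in share of −0.19, −0.21 and −0.21.

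The single sites with the largest changes differed several-fold. Pileup is given here relative to the library's median over all tested regions. The member at chr11:44087415-44088666 had 0.774, 0.825 and 0.577 in CRAMP1-KO replicates 1 to 3 and 2.74 and 2.37 in WT replicates 2 and 3, a log2 change of −1.83 (SE 0.17, limma adjusted p = 0.00247). It stood well above the median site in WT and below it in CRAMP1-KO. The member at chr17:1914715-1915673 had 0.242, 0.159 and 0.278 in CRAMP1-KO and 0.670 and 0.759 in WT (−1.70, SE 0.22, adjusted p = 0.0046). The next were at 142 Mb of chromosome 8 (−1.62), at chr10:80176117-80176669 (−1.59) and at chr9:101264684-101265746 (−1.51).

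Among the members that rose, the member at chr9:134297852-134298938 had 1.77, 1.54 and 1.67 in CRAMP1-KO and 0.545 and 0.5 in WT, a log2 change of 1.67 (SE 0.13, limma adjusted p = 0.00215). The member at chr17:64713557-64714224 had 2.23, 2.49 and 2.15 in CRAMP1-KO and 0.773 and 0.778 in WT (1.56, SE 0.13, adjusted p = 0.00215). Others were at chr14:77974391-77975071 (1.51), chr17:40966472-40967478 (1.51) and chr5:6551165-6552046 (1.44). At all 10 named sites the local background moved in the direction of the pileup, with log2 changes of −1.21 and 0.78 at the first of each direction. Both values are solved from the same peak, so the background is not a separate observation. The groups did not overlap at any of the 10, which their choice required. No hg19 annotation was used for these sites, which therefore carry no gene names.

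Gene starts place some of the members at known genes. Of the 33 listed genes in kept bins, 31 had a tested member, in each case lying over the start. At 6 of the 31 pileup was called lower in CRAMP1-KO and at 0 higher by limma, where 7.28% of all tested regions were called lower. At an unadjusted p under 0.05, 12 were lower and 0 higher, against 19.7% lower over all regions, and 27 of the 31 estimates were below 0, against 59.3%. The median log2 change was −0.23 with a range of −0.74 to 0.13. Of the 31 starts 25 belong to the highest quintile by pileup, where the median change was −0.20 at members and at other sites alike, so the median of the starts is close to that of high sites elsewhere. The 6 were MALAT1, FOSL1, RELA, COL18A1, CFL1 and LMNA. Local background was called lower at 9 of the 31, against 11.4% of all tested regions and 17.8% of members. Those 9 include MALAT1, NEAT1, FOSL1, RELA and CFL1, which all lie in the bin at 65 Mb of chromosome 11. Without WT replicate 2, and likewise without WT replicate 3, none of the 6 kept its call, and with depth-index scaling MALAT1 alone kept it, the sign being unchanged in each case.

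Of the nuclear long non-coding RNA genes, MALAT1, whose RNA sits in nuclear speckles, had relative pileups of 2.85, 3.65 and 3.56 in CRAMP1-KO replicates 1 to 3 and 5.77 and 5.37 in WT replicates 2 and 3. Its log2 change was −0.74 (SE 0.14, limma adjusted p = 0.0152), at chr11:65264551-65266075. NEAT1, the scaffold RNA of paraspeckles, changed by −0.23 and was not called (adjusted p = 0.30), with a background change of −0.35 that was called. All CRAMP1-KO values of MALAT1 lay below all WT values, while those of NEAT1 overlapped.

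Among the AP-1 genes, which encode dimerising transcription factors of growth and stress responses, 1 of 3 tested starts was called lower. FOSL1 had 3.23, 3.68 and 3.42 in CRAMP1-KO and 5.55 and 5.52 in WT (−0.69, SE 0.12, adjusted p = 0.0117). The starts of JUND (−0.25) and FOSL2 (−0.23) were not called, although in both all CRAMP1-KO libraries lay below both WT libraries.

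Growth signalling genes had 1 of 4 called. RELA, the p65 subunit of NF-kappaB, had 2.90, 2.98 and 2.86 in CRAMP1-KO and 4.43 and 4.56 in WT (−0.62, SE 0.12, adjusted p = 0.0134). Its background changed by −0.62 and its fold enrichment by −0.03, so the summit and its local background were lower by about the same factor. STK11, the kinase LKB1 that activates AMPK (−0.32), and TSC2, an inhibitor of mTOR signalling (−0.23), were not called, nor was AKT1, a kinase of the PI3K pathway (0.13).

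Of the cytoskeletal and housekeeping genes 1 of 6 was called. CFL1, which encodes the actin-severing protein cofilin, had 5.24, 5.49 and 4.92 in CRAMP1-KO and 7.23 and 7.43 in WT (−0.49, SE 0.12, adjusted p = 0.0323). GAPDH, a glycolytic enzyme gene with the highest pileup in the list (10.3, 10.8 and 8.53 in CRAMP1-KO and 10.8 and 11.2 in WT), changed by −0.16, and the actin genes ACTB and ACTG1 by −0.14 and −0.17, none of them called. CFL1, RELA, FOSL1 and MALAT1 all lie in the bin at 65 Mb of chromosome 11 described above and are neighbours, not separate samples of the genome. NEAT1 lies in it too.

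Matrix and mesenchymal genes had 2 of 6 called. COL18A1, a chain of basement membrane collagen whose promoter is the first printed above, had 0.516, 0.397 and 0.454 in CRAMP1-KO and 0.648 and 0.741 in WT (−0.61, SE 0.15, adjusted p = 0.0296). LMNA, the gene of lamins A and C of the nuclear envelope, had 3.82, 4.40 and 3.74 in CRAMP1-KO and 5.66 and 5.33 in WT (−0.47, SE 0.13, adjusted p = 0.046). COL6A2 (−0.35) and COL1A1 (−0.16), collagen genes, and TIMP2, a metalloproteinase inhibitor gene (0.02), were not called.

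In the remaining groups no start was called. Among 6 chromatin regulators CTCF, the insulator protein, had −0.41 (adjusted p = 0.0714), CBX8, a Polycomb chromodomain protein, had −0.31, and DNMT1, the maintenance DNA methyltransferase, had 0.02. The 3 metabolic and cell cycle genes, SREBF1, FASN and TK1, had −0.33, −0.17 and −0.15. GADD45B, a stress response gene, had −0.15. Across the groups, then, the called starts were those of a single chromosome 11 bin plus COL18A1 and LMNA.

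**Figure D5:**
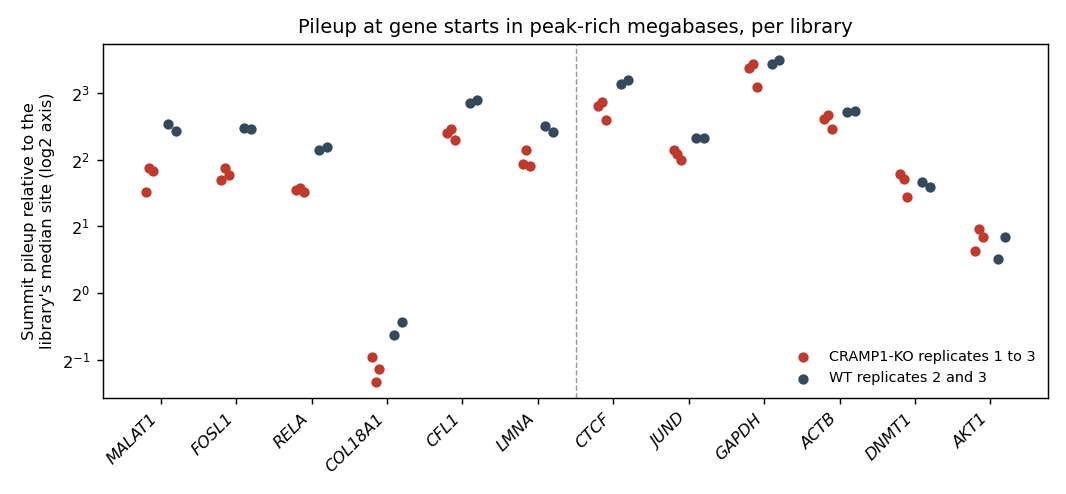
Summit pileup relative to the library's median site (log2 axis) at 12 gene starts in kept bins, with a point for each CRAMP1-KO and WT library. Left of the dashed line are the 6 starts called lower in CRAMP1-KO, from MALAT1 (−0.74 on the log2 scale) to LMNA (−0.47), and right of it are 6 that were not called.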

How the data were processed

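ATAC-seq peak lists of 6 U2OS libraries, 3 CRAMP1-KO and 3 WT, were used. Per the labels' protocols, each library came from 50000 cells tagmented for 30 minutes, with 7 PCR cycles. Per the submitters' processing notes, bcl2fastq 2.20.0, cutadapt 3.4, BWA 0.7.17-r1188, MACS3 and hg19 were used. The sources used here give no settings, duplicate handling or transposase shift. The authors deposited 1 list per library, without pooling. Each deposited peak has a score, a fold enrichment (ratio of summit to local background), a −log10 p and a −log10 q of at least 1.30. Read counts and total depth are unknown, so no counting interval is given.

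Pileup and background were solved for each summit from fold enrichment and the Poisson p, and were whole within 0.01 in nearly all peaks of every library. For each region, the strongest peak stood for a library. Pileup, background, fold enrichment and covered width were tested as log2 values centred on the library's median over regions with a peak in all 6 libraries. Bin shares were tested as log2 with a pseudocount of 0.5 peaks. Both used limma 3.58.1 (R 4.3.3) with Benjamini-Hochberg adjustment over all features and a threshold of 0.05, WT replicates 2 and 3 against 3 CRAMP1-KO replicates. Single values were compared by two-sided exact permutation over 10 assignments. Python 3.11.15, numpy 2.4.6, pandas 2.3.3, scipy 1.17.1, numba 0.67.0 and matplotlib 3.10.9 did the rest, and the fits were tested on simulated data.

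Named bins and sites are the 5 largest called changes in each direction, without overlap of the groups for sites, plus the 5 bins with most WT replicate 1 summits. Up to 4 gene starts per group were named by mean pileup. Bins with the most members called lower were chosen after their values were seen. Gene starts were written by hand for hg19: all 54 genes, markers included, are on the same chromosome in RefSeq (GRCh38.p14), 39 had a promoter there, and the spacing to a listed neighbour differed by at most 100 bp between builds for 17. The members and lists were chosen with earlier results of these data known. Other q limits, list lengths, summit limits, libraries, scalings, bin sizes and region sets were tried as alternatives. The medians of members minus other sites, the results without chromosome 8, those within chromosomes and the pair of like depth index were chosen after seeing the data.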

Additional observations from a re-analysis of the deposited data

How the results depend on the processing

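The share of peaks in the kept bins stayed lower in CRAMP1-KO in every alternative run, with differences of −3.10 to −1.02 points, and every median of members minus other sites stayed below 0. Counts of calls moved more. The shares called over all tested bins or regions are not given for these settings or for the runs with a library left out. The counts therefore do not show whether members still differ from all regions there. With a limit of 120 summits, 29 kept bins were called lower, members lower and higher numbered 3350 and 805 for pileup, 5939 and 1619 for background and 492 and 206 for fold enrichment, and sites in CRAMP1-KO only or WT only numbered 836 and 1862. With a limit of 170 the same counts were 6, 1107 and 229, 1952 and 513, 149 and 49, and 244 and 575. These limits change the number of members. With bins chosen from CRAMP1-KO replicate 1, 0 bins were called lower, and 2080 and 455 members lower and higher for background. With WT replicate 1 added, 3000 members were lower and 690 higher for pileup, and 500 lower and 248 higher for fold enrichment. In that setting 5 were lower and 13 higher for width, and 165 were in CRAMP1-KO only and 843 in WT only. Scaling bins to the median bin gave 63 called lower, a mean of at least 20 peaks 34, and 0.5-Mb bins 10. Depth-index scaling gave 767 and 215 for pileup and 411 and 235 for background. Peaks of −log10 q of at least 5 left 309 and 709 sites in CRAMP1-KO only and WT only, and of at least 10 left 204 and 362, with 187 members lower for fold enrichment and 1 higher for width. The cause of these shifts was not tested.

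Same-numbered libraries deviated with correlations of 0.056, 0.062 and −0.090, so the numbers do not pair them. With the replicate block, 5 bins were called lower, 1920 and 292 members lower and higher for background, and 280 and 187 for width.

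Leaving out each library in turn gave 2 to 12 bins called lower, 389 to 1366 members lower and 119 to 251 higher for pileup, 1806 to 4991 and 334 to 1689 for background, 53 to 265 and 25 to 92 for fold enrichment, and 752 to 1735 sites in CRAMP1-KO only and 1428 to 5427 in WT only, where fewer libraries were asked for. A lone WT library is then assumed to vary like the CRAMP1-KO group. Among the gene starts, estimates that were not called changed sign at DNMT1 (−0.0492 with bins from CRAMP1-KO replicate 1, −0.0533 with the block, −0.0533 to 0.118 on leaving out each library), AKT1 (−0.0359 to 0.303 on leaving out each library) and TIMP2 (−0.0997 to 0.132). The named bins kept their sign in all 85 alternatives and lost their call in 19, and the named sites lost it in 1 of 156. With 2 WT libraries and unknown read totals, small differences at single sites were not detectable.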

Other observations

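In 2 kept bins every CRAMP1-KO library held a larger share of its peaks than both WT libraries. The bin at 6 Mb of chromosome 5 had 89, 90 and 104 peaks in CRAMP1-KO and 92 and 83 in WT, a log2 change in share of 0.10 (SE 0.066, limma adjusted p = 0.318). Of its 47 tested members 10 were called higher for pileup and 1 lower, and its median changes were 0.16 for pileup and 0.20 for background. The bin at 27 Mb of chromosome 9 had a log2 change in share of 0.07 (adjusted p = 0.470), with 3 members called higher and 3 lower of 45 tested. These bins were chosen after their values were seen.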
